A study of Mus musculus with 6 samples.

Results

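Glucose that enters a heart muscle cell is phosphorylated by hexokinase and either passes down glycolysis to pyruvate and lactate or is stored as glycogen. The newborn heart is in transition, since the fetal heart relies on glycolysis and carries large glycogen stores, and fatty acid oxidation takes over after birth. Fructose bisphosphatase runs against phosphofructokinase at the step that commits sugar to glycolysis, and glycogen synthase and phosphorylase are held in balance by protein phosphatase 1, which is brought to glycogen by targeting subunits of the Ppp1r3 family. The genes described here are 38 named genes of glucose uptake, glycolysis, lactate handling, fructose bisphosphatase and glycogen metabolism, out of 56748 genes in the table. They were chosen by gene symbol and occupied 39 rows, because Aldoa has 2 rows in the table.

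RNA of whole hearts at postnatal day 1 (P1) was sequenced in 3 FF libraries, labelled Flox and named in the series' design as Kdm5b FF controls, and 3 cKO libraries of mice with a cardiac-specific knockout of Kdm5b, a histone H3 lysine 4 demethylase. The labels name neither the Cre line nor the floxed exons, strain or sex. They do not say how many animals stand behind a library, and the tests weigh group differences against the spread among libraries, which may be technical. The values are FPKM, read counts scaled to gene length and library size. Levels can be compared between genes only as far as those gene lengths match the transcripts measured. In whole hearts, fewer cells of a type and less RNA per cell cannot be told apart.

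The libraries held 15658893 to 20339926 reads in genes. Kdm5b itself was at 3.19, 3.25 and 3.92 in FF and 2.80, 3.03 and 2.75 FPKM in cKO hearts, with a limma adjusted p of 0.447, and the whole-gene value also covers exons outside a floxed part and other cell types. FF replicate 3 stood apart: its correlation with the other libraries was 0.880 to 0.909, against 0.954 to 0.984 among those 5. The summed level of 8 thymocyte markers was 200.02 FPKM in it and at most 1.91 FPKM elsewhere. Genes rich in GC were relatively higher in it than in the other FF libraries, with Spearman's rho of 0.639 across 12473 genes and 0.367 across the 37 member rows tested, which are not independent replicates. The main comparisons are therefore given with and without this library. Cardiomyocyte markers summed to 10505 to 11730 in FF and 11493 to 13691 FPKM in cKO hearts, as the tissue label says. None of the 7 passed with 6 libraries. Without FF replicate 3, Pln fell (-0.56, limma adjusted p = 0.0485) and no other of them passed. The 8 skeletal muscle markers summed to 262 to 453 in FF and 372 to 442 FPKM in cKO hearts. Of these, Ckm and Acta1, which the heart also expresses, carried nearly all of the sum and rose without FF replicate 3 (limma adjusted p = 0.0437 and 0.0228). Tnni2 went the other way, at 1.06, 1.46 and 1.81 in FF and 0.676, 0.879 and 0.769 FPKM in cKO hearts, without passing (limma adjusted p = 0.246 with 6 libraries). Tnnt3 reached 1.02 FPKM and overlapped between the groups, with means of 0.700 in FF and 0.577 FPKM in cKO hearts. Myh3, Myh8 and Pax7 were under 1 FPKM in all 6 libraries, and Myf5 was at 0. The part of other muscle in the members' differences was not tested.

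Promoter sequences are shown first for the 3 members with the largest differences without FF replicate 3, the muscle fructose bisphosphatase gene Fbp2 and the glycogen-targeting subunit genes Ppp1r3c and Ppp1r3a. Each runs from 250 bases before to 50 bases after the transcription start in RefSeq on GRCm38.p6, matched by symbol, on the minus strand of the genome. Capitals mark ACGTG or GCGTG on either strand, the core letters to which hypoxia-inducible factors can bind. ACGTG also lies inside CACGTG, the E-box bound by several other factors, and GCGTG does not.
Fbp2, chr13:62858351-62858650: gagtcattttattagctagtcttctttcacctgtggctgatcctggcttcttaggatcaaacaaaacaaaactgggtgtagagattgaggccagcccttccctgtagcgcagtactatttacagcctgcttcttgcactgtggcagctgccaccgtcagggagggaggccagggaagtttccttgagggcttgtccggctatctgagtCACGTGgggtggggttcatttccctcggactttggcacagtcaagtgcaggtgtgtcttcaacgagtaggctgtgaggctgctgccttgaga
Ppp1r3c, chr19:36736555-36736854: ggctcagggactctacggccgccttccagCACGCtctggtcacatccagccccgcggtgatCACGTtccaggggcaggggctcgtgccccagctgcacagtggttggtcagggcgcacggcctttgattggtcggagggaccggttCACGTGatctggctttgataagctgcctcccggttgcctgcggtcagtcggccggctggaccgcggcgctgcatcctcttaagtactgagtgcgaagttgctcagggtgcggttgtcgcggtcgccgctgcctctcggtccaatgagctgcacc
Ppp1r3a, chr6:14755225-14755524: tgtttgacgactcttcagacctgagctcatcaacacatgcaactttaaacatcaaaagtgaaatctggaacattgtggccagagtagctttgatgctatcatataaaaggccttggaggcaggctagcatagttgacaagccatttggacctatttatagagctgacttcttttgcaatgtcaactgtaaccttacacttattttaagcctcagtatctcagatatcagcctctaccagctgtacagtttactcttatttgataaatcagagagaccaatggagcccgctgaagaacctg
The window of Fbp2 held 1 CACGTG and that of Ppp1r3c held 1 CACGTG beside 2 other matches, while that of Ppp1r3a held none of these letters and had 2 CpG dinucleotides, against 6 in Fbp2 and 26 in Ppp1r3c. RefSeq windows were found for 37 of the 38 members, without Slc2a4. Of their 55 windows 72.7% held ACGTG or GCGTG, against 43.8% of all 32851 windows, and 12.7% held CACGTG, against 7.15%. The member windows were also richer in CpG, with a median of 16 against 7 in all windows, so the shares are not set against windows of equal base composition. These matches are descriptions of letters and show no binding.

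Fbp2 (ENSMUSG00000021456), which the table places on chromosome 13 from 62984691 to 63006236 on the minus strand, had the largest difference of the members and passed the threshold with all 6 libraries. These are the coordinates of the deposited table, whose build is not stated and whose gene ends are not those of GRCm38. Its level was 9.61, 8.85 and 5.16 in FF and 0.827, 0.930 and 0.220 FPKM in cKO hearts. Every cKO library lay far below every FF library. The means were 7.87 ± 2.38 and 0.659 ± 0.384 FPKM (SD, n = 3 each), 11.9-fold lower in cKO, and 14.01-fold lower against FF replicates 1 and 2. Fbp2 fell by 2.41 on the log2(FPKM + 1) scale (SE 0.27), which understates changes of low genes, with a limma adjusted p of 0.0496 after Benjamini-Hochberg adjustment at 0.05. It was the 1 member past the threshold among the 36 members (37 rows) tested, where 0.166% of all 12678 genes tested passed, 0.0947% of them lower and 0.071% higher. Without FF replicate 3 the difference was -2.65 (limma adjusted p = 0.00499). Leaving out any of the other libraries kept the difference between -2.53 and -2.20 but ended the call, with limma adjusted p from 0.155 to 0.261, and in those 5 fits no gene of the table passed in limma, with 1270 to 2049 genes at an unadjusted p under 0.05. Reads behind Fbp2 numbered 241, 208 and 145 in FF and 24, 27 and 7 in cKO libraries, so the lowest cKO value has a 95% exact Poisson interval of 0.0883 to 0.452 FPKM, which covers counting error only. Fbp1, the liver form, was at most 0.215 FPKM in any library.

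Phosphofructokinase, which catalyses the opposite reaction, showed no such difference in its main form. Pfkm, the muscle subunit, was at 118, 108 and 107 in FF and 115, 130 and 113 FPKM in cKO hearts, and these values overlapped. The ratio of Fbp2 to Pfkm within a library, which does not depend on how libraries were scaled, was 0.0815, 0.0817 and 0.0481 in FF and 0.00718, 0.00715 and 0.00194 in cKO hearts. The groups did not overlap (log2 difference -3.88, two-sided exact permutation p = 0.1, adjusted p = 0.157 over 11 pairs). With 3 against 3 libraries 0.1 is the smallest p this test can give.

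**Figure D1:**
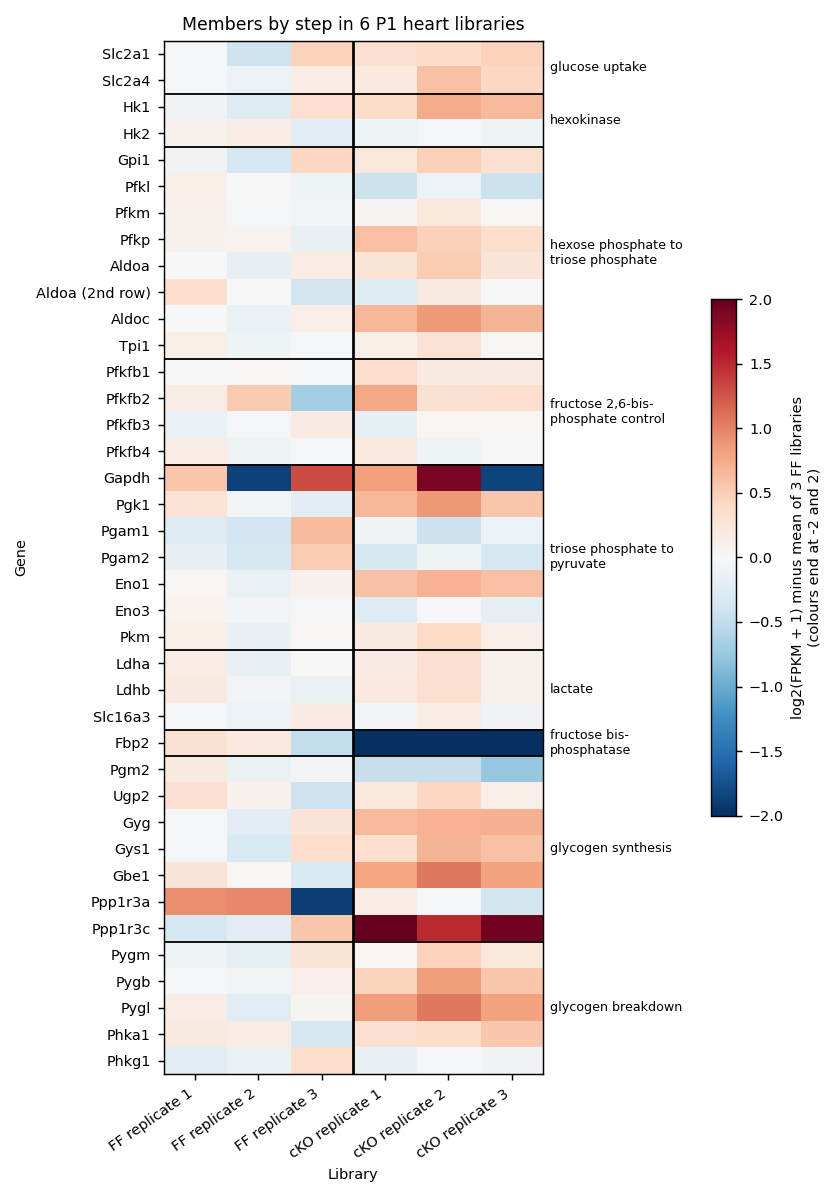
Level of each member row (vertical axis, by step) in each library (horizontal axis) as log2(FPKM + 1) minus the mean of the 3 FF libraries, with red above and blue below that mean. Fbp2 is blue and Ppp1r3c red in all 3 cKO libraries, while Gapdh differs among libraries of both groups and Ppp1r3a is blue in FF replicate 3.

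Over the members as a set, most rows were higher in cKO hearts, but few single genes passed with 6 libraries. Of the 37 rows tested 27 had a difference above 0 (73.0%, against 50.7% of all genes tested), and their median was 0.25, against 0.01 over all genes. Besides Fbp2 no member passed with 6 libraries, whereas 14 were higher and 2, Fbp2 among them, lower at an unadjusted limma p under 0.05, that is 37.8% and 5.41% of the rows, where 8.39% of all genes were higher and 9.55% lower (17.9% together). The groups did not overlap for 15 rows that were higher and 3 that were lower in cKO, that is 40.5% and 8.11% of the rows, where 13.5% and 14.5% of all genes were so placed (28.0% in either direction). Without FF replicate 3, 12 members rose and 3 fell past the threshold among 38 rows (37 members), that is 31.6% and 7.89%. In that fit 6.47% of all 12631 genes tested rose and 7.12% fell (13.6% together), and 81.6% of member rows and 48.7% of all genes had a difference above 0. The 11 glycogen genes tested had a median difference of 0.53 with 6 libraries and 0.66 without FF replicate 3, and the 26 and 27 other rows had 0.22 and 0.14. Many of these genes were known from earlier results of these data to differ, so the counts are descriptions. Member reads took 0.897% to 1.00% of all reads in FF libraries and 1.17% to 1.34% in cKO libraries. Mitochondrially encoded genes took 18.0% to 19.0% of the total in FF and 12.8% to 15.7% in the cKO group. Of the reads outside those genes members took 1.09% to 1.23% in FF and 1.37% to 1.54% in cKO libraries.

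**Figure D2:**
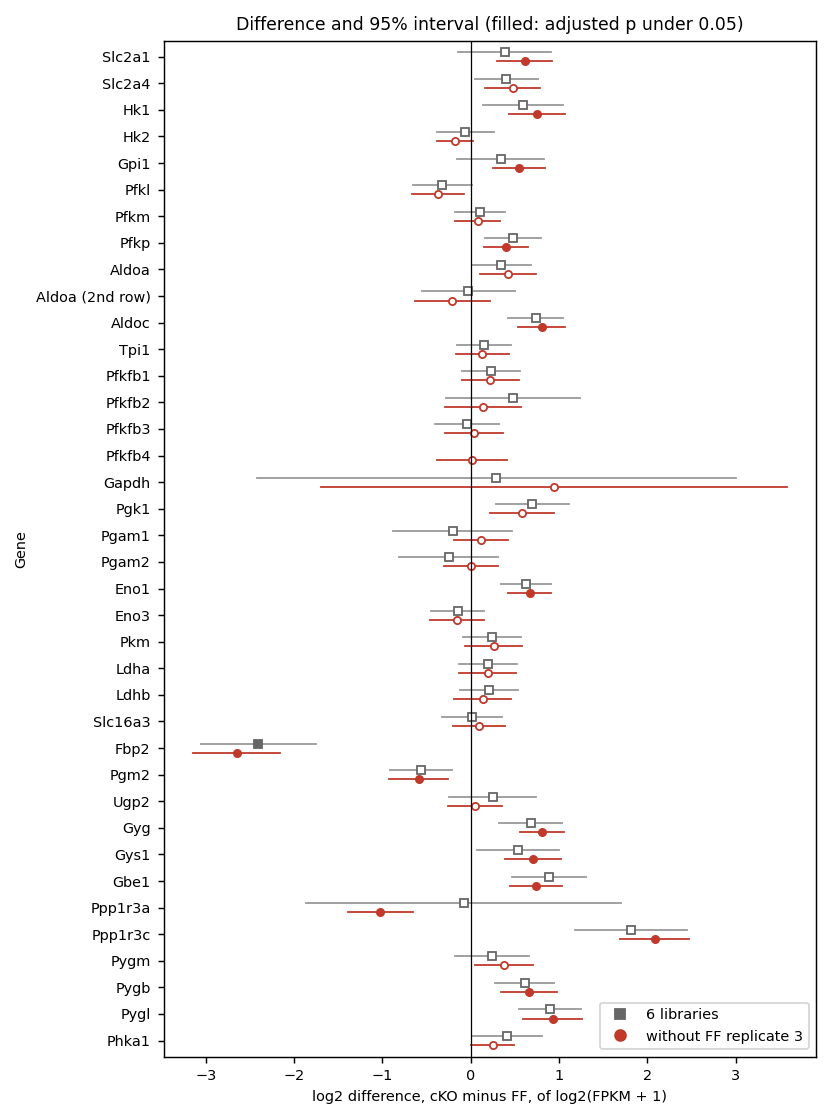
Difference in log2(FPKM + 1) between cKO and FF hearts (cKO minus FF) of each tested member row, with its 95% interval, for 6 libraries (grey squares) and without FF replicate 3 (red circles), filled where the limma adjusted p was under 0.05. Of the squares only that of Fbp2 is filled, and 15 circles are filled.

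Glucose enters through Slc2a4 (GLUT4), the insulin-responsive carrier, and Slc2a1 (GLUT1), the basal carrier of fetal heart. Slc2a4 was the more abundant in every library, with 26.4, 24.5 and 29.7 in FF and 30.7, 40.8 and 36.2 FPKM in cKO hearts. The groups did not overlap, but the difference of 0.40 did not pass with 6 libraries (limma adjusted p = 0.236) or without FF replicate 3 (adjusted p = 0.0564). Slc2a1 stood at 7.08, 5.23 and 10.4 in FF and 9.33, 9.71 and 10.5 FPKM in cKO hearts. FF replicate 3 lay within the cKO range, and without it Slc2a1 rose by 0.61 (SE 0.13, limma adjusted p = 0.0315).

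Hexokinase, the first enzyme of the path, is represented by 2 genes, Hk1, common to most tissues, and Hk2, the insulin-sensitive form of muscle. Hk1 was at 24.8, 21.7 and 33.2 in FF and 34.0, 44.5 and 41.5 FPKM in cKO hearts, higher in all cKO libraries. Its difference was 0.59 (SE 0.19, limma adjusted p = 0.191) and passed without FF replicate 3, at 0.75 (adjusted p = 0.0207). Hk2 was at 16.8, 17.6 and 13.5 in FF and 14.9, 15.7 and 14.8 FPKM in cKO hearts, and did not pass in either fit. The ratio of Hk1 to Hk2 was 1.48, 1.23 and 2.46 in FF and 2.28, 2.84 and 2.81 in cKO hearts, so FF replicate 3 again overlapped the cKO libraries (exact permutation p = 0.2).

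Among the enzymes from glucose 6-phosphate to triose phosphates, Gpi1, Pfkp and Aldoc passed without FF replicate 3, and the main forms of phosphofructokinase and aldolase did not. The isomerase Gpi1 was at 87.7, 73.4 and 123 in FF and 108, 129 and 116 FPKM in cKO hearts, overlapping through FF replicate 3, without which it rose by 0.54 (limma adjusted p = 0.0374). Pfkp, the platelet form of phosphofructokinase, was at 10.4, 10.2 and 8.65 in FF and 15.4, 13.9 and 12.7 FPKM in cKO hearts. It was higher in all cKO libraries, by 0.48 with 6 libraries (limma adjusted p = 0.143) and by 0.40 without FF replicate 3 (adjusted p = 0.0488). Pfkp overlaps Pitrm1, and no source used here says whether reads were counted by strand. Pfkl, the liver form, went the other way, from 19.0, 17.4 and 16.1 in FF to 12.8, 16.1 and 12.7 FPKM in cKO hearts, without passing in either fit. Both were below Pfkm, which made up 79.7% to 81.6% of the phosphofructokinase sum in FPKM in each library. That share depends on the gene lengths used, 3340 bases for Pfkm, 6675 for Pfkl and 13401 for Pfkp. Reads not divided by length were 5789 to 8591 for Pfkm, 1684 to 2161 for Pfkl and 2195 to 4068 for Pfkp.

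Aldolase C (Aldoc), a form best known from brain, was at 2.24, 1.95 and 2.58 in FF and 4.17, 4.85 and 4.21 FPKM in cKO hearts. The groups did not overlap, and the difference of 0.73 (SE 0.13, limma adjusted p = 0.0694) passed without FF replicate 3, at 0.80 (adjusted p = 0.0131). Aldoa, the muscle aldolase and 99.1% to 99.4% of the aldolase sum when both its rows are counted, was at 379, 338 and 419 in FF and 456, 535 and 449 FPKM in cKO hearts in its main row, with a limma adjusted p of 0.271 and 0.0781 in the fits with 6 and 5 libraries. The second Aldoa row, a short neighbouring gene model, was at 0.915 to 2.13 FPKM. Tpi1, triose phosphate isomerase, was at 212 to 276 FPKM and did not pass.

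Fructose 2,6-bisphosphate is the activator of phosphofructokinase, made and removed by the Pfkfb enzymes. All 4 genes were low, with means over the libraries from 0.992 FPKM for Pfkfb4, which missed the filter with 6 libraries, to 3.54 FPKM for Pfkfb2, the heart form. None passed in either fit, nor did any reach an unadjusted limma p under 0.05. Pfkfb2 was at 3.09, 4.32 and 1.30 in FF and 5.29, 3.57 and 3.68 FPKM in cKO hearts, with FF replicate 3 the lowest of the libraries.

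Of the 7 genes between triose phosphate and pyruvate, Eno1 was the one that passed without FF replicate 3. Eno1, the enolase of most tissues and of the fetal heart, was at 63.1, 55.8 and 64.6 in FF and 91.7, 99.2 and 93.2 FPKM in cKO hearts. The groups were well apart, with a difference of 0.62 (SE 0.12, limma adjusted p = 0.0745) and of 0.67 without FF replicate 3 (adjusted p = 0.0138). Eno3, the muscle enolase that replaces it as muscle matures, was at 452, 415 and 422 in FF and 359, 430 and 374 FPKM in cKO hearts and did not pass. The ratio of Eno1 to Eno3 was 0.140, 0.135 and 0.153 in FF and 0.255, 0.231 and 0.249 in cKO hearts, with no overlap (exact permutation p = 0.1, adjusted p = 0.157 over the 11 pairs). The enolase sum was 491 ± 22.4 in FF and 483 ± 41.5 FPKM in the cKO group (SD, n = 3 each), a difference within the spread.

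Pgk1, phosphoglycerate kinase, was at 257, 202 and 179 in FF and 333, 384 and 310 FPKM in cKO hearts. All cKO values were above all FF values, and the difference of 0.69 did not pass (limma adjusted p = 0.123, and 0.0503 without FF replicate 3). Pkm, pyruvate kinase, was at 195, 162 and 185 in FF and 205, 238 and 199 FPKM in cKO hearts, not overlapping but short of the threshold in both fits. Pgam2, the muscle phosphoglycerate mutase, was at 331, 293 and 527 in FF and 298, 349 and 292 FPKM in cKO hearts. FF replicate 3 was the highest library for Pgam2 and for Pgam1, the other mutase gene, at 52.5 FPKM against 24.6 to 31.6 FPKM elsewhere. Neither passed.

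Gapdh, often used as a reference gene, was not stable in this table. It was at 19.8, 2.92 and 34.3 in FF and 24.2, 51.4 and 2.97 FPKM in cKO hearts, an 11.8-fold range within FF and a 17.3-fold range within cKO. Its mean of 22.6 FPKM lay below those of Tpi1, Pgk1 and Pkm, which act on either side of it and varied far less. Between 193 and 4202 reads stood behind these values, so counting error is small beside the range. The mouse genome holds many near-identical processed copies of Gapdh, which can share its reads, so its values are uncertain and give no comparison (limma adjusted p = 0.919). Whether such copies took its reads was not tested. Pgk1, Pgam1, Ldha and Aldoa also have processed copies in GENCODE M21, and Eno1 has a retrocopy, Eno1b.

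At the lactate end no gene passed in either fit, and each unadjusted limma p was above 0.05. Ldhb, the heart subunit of lactate dehydrogenase and the most abundant member, was at 525, 450 and 424 in FF and 529, 582 and 495 FPKM in cKO hearts. Ldha, the subunit that favours lactate formation, was at 210 to 293 FPKM over the libraries. The ratio of Ldha to Ldhb was 0.495, 0.467 and 0.549 in FF and 0.493, 0.503 and 0.501 in cKO hearts, a log2 difference of -0.00993 (exact permutation p = 0.9), less than the spread among FF libraries (SD 0.119). Slc16a3 (MCT4), a lactate exporter of glycolytic tissue, was at 2.02 to 2.68 FPKM in all libraries.

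**Figure D3:**
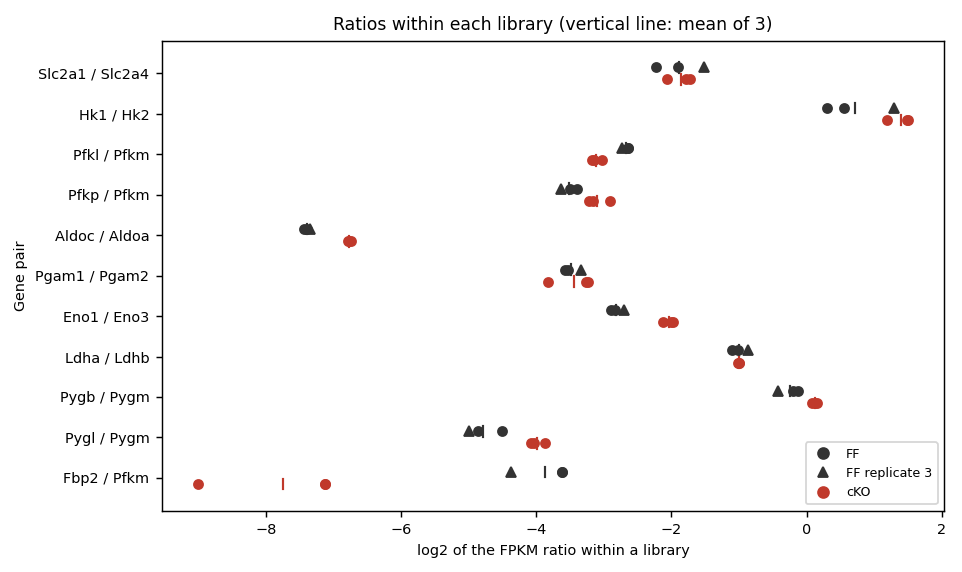
Log2 of the FPKM ratio of each gene pair within a library (horizontal axis), for FF (black, triangle for replicate 3) and cKO hearts (red), with the mean of 3 as a vertical line. The groups do not overlap for 7 of the 11 pairs, among them Eno1 to Eno3 and Aldoc to Aldoa, and overlap for Ldha to Ldhb. Several pairs share a gene, and no share over other gene pairs was computed to set beside this count.

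Without FF replicate 3, 6.47% of all genes tested rose past the threshold and 7.12% fell. Of the 11 genes grouped here under glycogen metabolism and tested, 6 rose and 2, Ppp1r3a and Pgm2, fell in that fit. Pgm2 is placed in this group by its symbol, and its traded name is described below. Ppp1r3c (PTG; ENSMUSG00000067279, chromosome 19 from 36709131 to 36714053 in the table), which brings protein phosphatase 1 to glycogen and favours its synthesis, had the largest rise of the members in that fit. It was at 6.75, 7.43 and 13.1 in FF and 38.5, 26.3 and 36.1 FPKM in cKO hearts. The lowest cKO value was above the highest FF value, and the mean was 3.70-fold higher with 6 libraries and 4.74-fold higher against FF replicates 1 and 2. The log2 difference of 1.81 (SE 0.26) just missed the threshold with 6 libraries (limma adjusted p = 0.0589) and was 2.08 without FF replicate 3 (adjusted p = 0.00511).

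Ppp1r3a, the large glycogen-targeting subunit of striated muscle, differed in the other direction when FF replicate 3 was left out. It was at 12.6, 12.96 and 0.945 in FF and 6.99, 6.01 and 4.56 FPKM in cKO hearts. FF replicate 3 was the lowest of all libraries, so the cKO values lay between the FF values. The difference was -0.08 (SE 0.75, limma adjusted p = 0.964) with 6 libraries and -1.02 (adjusted p = 0.0137) without FF replicate 3, and it was above 0 without FF replicate 1 (0.38) or FF replicate 2 (0.40). Ppp1r3a had the lowest GC content of the members tested, 36.7% in its longest GENCODE M21 transcript, and the part of GC content in its low value in FF replicate 3 was not tested.

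Gyg, glycogenin, the protein on which a glycogen particle is started, was at 117, 102 and 142 in FF and 187, 193 and 195 FPKM in cKO hearts. All cKO values were above the FF values and close to one another, with a difference of 0.68 (SE 0.15, limma adjusted p = 0.0975) and of 0.81 without FF replicate 3 (adjusted p = 0.0127). Gys1, the muscle glycogen synthase, was at 18.9, 15.6 and 25.2 in FF and 24.96, 31.7 and 29.6 FPKM in cKO hearts, overlapping through FF replicate 3, and rose by 0.70 without it (adjusted p = 0.0242). Gys1 overlaps Ruvbl2, so some of its reads may belong there. Gbe1, the branching enzyme, was at 9.73, 8.28 and 6.32 in FF and 14.5, 17.8 and 14.8 FPKM in cKO hearts. It did not overlap between the groups and differed by 0.88 (adjusted p = 0.0787), or 0.74 without FF replicate 3 (adjusted p = 0.0175).

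Ugp2, which makes the UDP-glucose used by the synthase, was at 94.3, 79.3 and 56.3 in FF and 86.6, 99.9 and 81.9 FPKM in cKO hearts and did not pass. Pgm2 was at 8.75, 6.86 and 7.30 in FF and 5.22, 5.24 and 4.07 FPKM in cKO hearts, lower in all cKO libraries, and fell by 0.59 without FF replicate 3 (limma adjusted p = 0.0413). Mouse Pgm1 and Pgm2 have traded names, and the Pgm2 of this table (ENSMUSG00000029171) carries Pgm1 among its older RefSeq symbols. The table's Pgm1 (ENSMUSG00000025791), an older Pgm2, was far more abundant, at 58.9 ± 6.48 in FF and 59.3 ± 4.86 FPKM in the cKO group (SD, n = 3 each).

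Glycogen phosphorylase releases glucose 1-phosphate, and the hearts held transcripts of all 3 forms. Pygb, the brain form, was at 104, 103 and 115 in FF and 146, 191 and 157 FPKM in cKO hearts, with no overlap and a difference of 0.61 (limma adjusted p = 0.105), which passed at 0.66 without FF replicate 3 (adjusted p = 0.0282). Pygl, the liver form, was at 5.23, 3.85 and 4.84 in FF and 8.98, 10.7 and 8.79 FPKM in cKO hearts, 2.04-fold higher, with a difference of 0.90 (adjusted p = 0.0659, and 0.0137 without FF replicate 3). Pygl is also known from neutrophils, whose 6 markers summed to 14.5 to 24.2 in FF and 7.71 to 9.65 FPKM in cKO hearts, and their part in the values of Pygl was not tested. Pygm, the muscle form, was at 119, 112 and 154 in FF and 131, 174 and 148 FPKM in cKO hearts and did not pass. The ratio of Pygb to Pygm was 0.871, 0.920 and 0.744 in FF and 1.11, 1.09 and 1.06 in cKO hearts (exact permutation p = 0.1, adjusted p = 0.157). In FPKM Pygb was thus the lower of the pair in every FF library and the higher in every cKO library. In reads, before division by gene lengths of 4809 and 3218 bases, Pygb was above Pygm in all 6 libraries. Which form is the higher in FF therefore depends on those lengths, and the difference in log2 ratio between the groups does not.

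Phosphorylase kinase switches phosphorylase on. Its muscle alpha subunit gene Phka1 was at 6.34, 6.15 and 4.21 in FF and 7.09, 7.36 and 8.44 FPKM in cKO hearts, not overlapping and short of the threshold in both fits. Phkg1, the muscle gamma subunit, was at 0.459 to 1.18 FPKM, under the filter of a mean of 1 FPKM, and overlaps the abundant Chchd2.

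**Figure D4:**
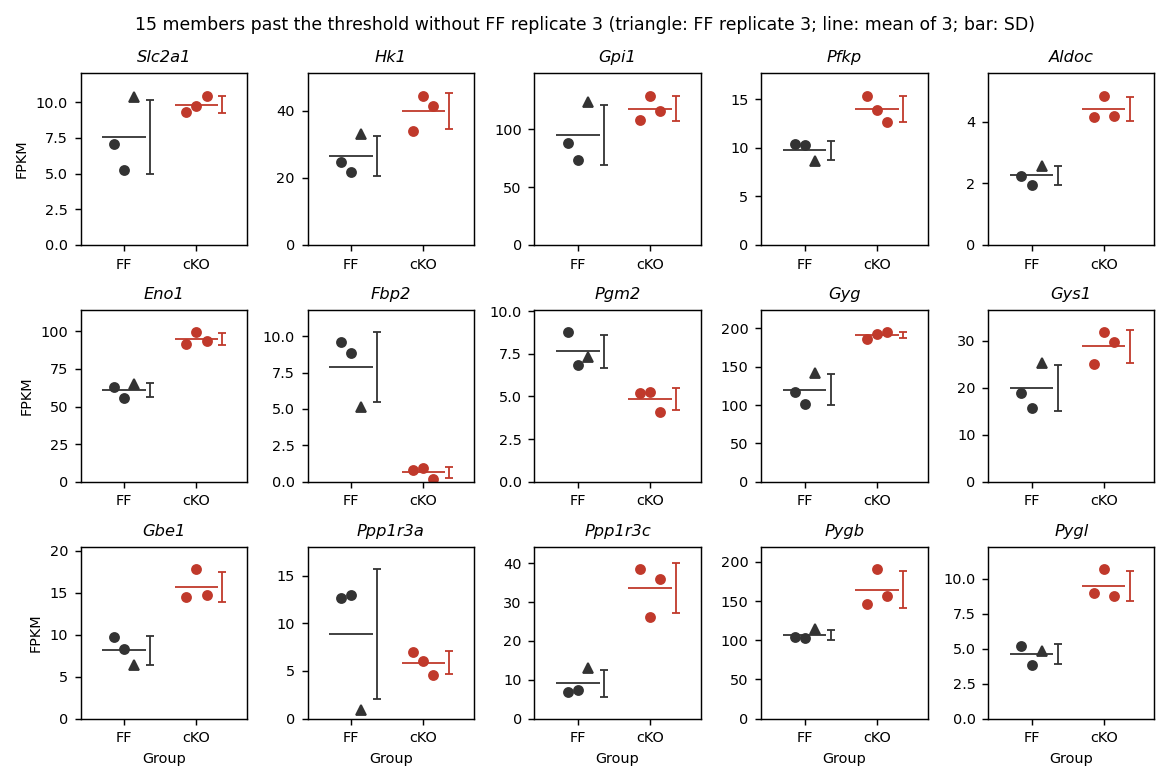
FPKM of the 15 members that passed the threshold without FF replicate 3, in FF (black, triangle for replicate 3) and cKO hearts (red), with the mean of 3 as a line and the SD as a bar. The groups do not overlap for 11 of the 15, which were selected on these same values, and for 28.0% of all genes tested with 6 libraries. FF replicate 3 lies at or near the cKO values for Slc2a1, Gpi1 and Gys1 and below all others for Ppp1r3a.

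Other genes of the same paths were read from lists of 74 genes, of which 55 were tested. None passed with 6 libraries in limma, where 6 were higher and 3 lower at an unadjusted p under 0.05. These are 10.9% and 5.45% of them, near the shares of 8.39% and 9.55% over all genes. Without FF replicate 3, 11 of the 55 rose and 2 fell, with a median difference of 0.01. In that fit 6.47% of all genes tested rose and 7.12% fell, and the counts by list below stand beside these shares. Of 17 other glycogen genes tested 5 rose without FF replicate 3. They included Phka2, the liver alpha subunit of phosphorylase kinase, with means of 6.97 ± 0.484 in FF and 11.2 ± 1.04 FPKM in the cKO group (SD, n = 3 each). Its limma adjusted p was 0.0784 with 6 libraries and 0.0146 without FF replicate 3. Ppp1r3b, a further targeting subunit, had means of 5.01 ± 0.877 and 8.21 ± 0.381 FPKM, with adjusted p of 0.103 and 0.023 in the same limma fits. The lysosomal glucosidase Gaa was at 13.7, 12.6 and 29.2 in FF and 17.1, 22.9 and 22.8 FPKM in cKO hearts, so that FF replicate 3 was the highest library. Its difference was 0.25 with 6 libraries (limma adjusted p = 0.722) and 0.62 without FF replicate 3 (adjusted p = 0.0369).

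Of 6 genes of gluconeogenesis tested 3 rose without FF replicate 3. For each of these 3, which were selected on these same values, the groups did not overlap, as for 28.0% of all genes tested with 6 libraries. These were Pcx, pyruvate carboxylase, with means of 1.44 ± 0.439 in FF and 3.38 ± 0.514 FPKM in the cKO group, Pck2, the mitochondrial carboxykinase (3.04 ± 0.380 and 4.82 ± 0.190), and the glucose 6-phosphate carrier Slc37a4 (5.72 ± 0.294 and 8.12 ± 0.168; SD, n = 3 each). Their limma adjusted p ran from 0.0854 to 0.110 with 6 libraries and from 0.0306 to 0.0317 without FF replicate 3. Gpd1 of the same list was lower in every cKO library, with means of 5.16 ± 2.19 in FF and 2.72 ± 0.514 FPKM in the cKO group (SD, n = 3 each). It did not pass with 6 libraries (limma adjusted p = 0.239) or without FF replicate 3 (adjusted p = 0.0920). Among carriers of lactate and pyruvate 2 of 5 fell in the smaller fit. Bsg, the chaperone of the lactate carriers, had means of 351 ± 52.9 and 234 ± 13.3 FPKM, with limma adjusted p of 0.126 with 6 libraries and 0.0398 without FF replicate 3. Mpc2 of the mitochondrial pyruvate carrier was at 18.6, 18.2 and 10.2 in FF and 13.4, 11.4 and 10.3 FPKM in cKO hearts, with FF replicate 3 the lowest library (limma adjusted p = 0.492, and 0.0255 without it).

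In 3 further lists 1 gene each passed without FF replicate 3, and for each of them that library lay within or above the cKO values. The glucose carrier Slc2a8, of 6 other transport genes, was at 3.72, 3.39 and 5.01 in FF and 4.70, 5.42 and 4.92 FPKM in cKO hearts (limma adjusted p = 0.421, and 0.0474 without FF replicate 3). H6pd, of 8 pentose phosphate genes, was at 5.85, 5.25 and 11.2 in FF and 7.62, 10.3 and 9.34 FPKM in cKO hearts (limma adjusted p = 0.590, and 0.0319 without it). Sord, of 9 hexosamine and polyol genes, was at 43.1, 41.6 and 66.5 in FF and 55.4, 59.4 and 51.9 FPKM in cKO hearts (limma adjusted p = 0.707, and 0.0473 without it). Of 4 other glycolytic enzymes tested none passed in either fit.

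Regulators of glucose use were followed in a list of 19 genes, all tested. Hif3a, a hypoxia-inducible factor subunit, rose with all 6 libraries (limma adjusted p = 0.0496; FF mean 2.46 FPKM, SD 0.947; cKO mean 12.4 FPKM, SD 1.63), and 4 more rose without FF replicate 3. Txnip, which restrains glucose uptake and is induced by glucose, was at 176, 184 and 229 in FF and 353, 360 and 363 FPKM in cKO hearts, with a difference of 0.87 (adjusted p = 0.0659) that passed at 0.99 (adjusted p = 0.00802). The others were Prkaa2 and Prkab2 of AMP-activated kinase and the insulin receptor substrate Irs1. Prkaa2 had means of 19.4 ± 6.89 and 32.3 ± 0.588 FPKM, with limma adjusted p of 0.213 with 6 libraries and 0.0275 without FF replicate 3. Prkab2 had means of 8.26 ± 0.738 and 12.9 ± 1.30 FPKM (0.0945 and 0.0302 as limma adjusted p), and Irs1 of 1.54 ± 0.136 and 3.49 ± 0.731 FPKM (0.0787 and 0.0282; SD, n = 3 each). Hif1a was at 30.6 ± 14.9 and 37.96 ± 4.27 FPKM and did not pass in either fit.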

How the data were processed

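The authors deposited 1 table of FPKM per gene for 6 libraries, per the file headers. Tools named in the submitters' processing notes, without roles, are edgeR, featureCounts, Subread, TopHat2 (version 2.0.13) and FastQC, and the builds GRCh38, mm10 and GRCm39. Annotation release and strand setting are not stated there. None of the 39 member rows had the start and end of GENCODE M21 on GRCm38, so the table is not on those gene models. FPKM times gene length fell on whole multiples of a step, with 100% of values under 200 reads within 0.1 of a whole number, which gave the reads. The median ratio to the geometric mean over 17868 genes was 1.01 in every library, so the deposited values are already on a median-ratio scale.

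For the group difference, limma (3.58.1, run in R 4.3.3) was fitted to log2(FPKM + 1) with an intensity trend. A gene entered if its mean over the fitted libraries reached 1 FPKM, with Benjamini-Hochberg adjustment over all genes tested at 0.05. Ratios within libraries were tested by exact permutation. The fit was also run on simulated data of 6 alike libraries. None of these stood apart as FF replicate 3 does, so that run cannot show how the fit behaves with such a library. The members and lists were chosen with earlier results of these data known. Values of every library are given for members past the threshold with 6 libraries, up to 14 past it without FF replicate 3, the main isoform of each family and pairs that did not overlap. Other lists are named by at most 4 genes past the threshold. Of these, 1 is counted but not reported here. Library values of further members, and Pgm1, Fbp1 and Hif1a, were added after they were seen, as were the promoter motifs. Alternatives were other pseudocounts, filters, scalings, variance priors, library weights, limma voom on the reads, protein-coding genes, GC correction, a replicate block and leaving out each library. Of the marker lists, endothelial markers summed to 212 to 341 FPKM in FF and 193 to 245 FPKM in cKO hearts, fibroblast markers to 254 to 492 and 210 to 299, smooth muscle markers to 267 to 427 and 358 to 462, macrophage markers to 33.1 to 77.5 and 24.3 to 31.4, erythroid markers to 741 to 1544 and 868 to 1075, nerve and glia markers to 2.14 to 44.0 and 1.25 to 2.40, liver markers to 0.986 to 1.41 and 0.470 to 3.02, lung markers to 0.0517 to 0.297 and 0.0751 to 2.43, and brown fat markers to 24.8 to 26.0 and 9.81 to 12.4 FPKM. Nearly all of the last sum was Cidea, which was lower in cKO hearts with 6 libraries (limma adjusted p = 0.0338), while Ucp1 and Adipoq were under 1 FPKM throughout. Without FF replicate 3 the fibroblast marker Dcn was lower in cKO hearts (limma adjusted p = 0.0219). The other fibroblast markers did not pass and differed in sign, with Lum at -0.60, Col1a2 at -0.02, Pdgfra at 0.18 and Col1a1 at 0.26. The erythroid marker Alas2 and the smooth muscle markers Cnn1 and Acta2 were higher in the same fit (limma adjusted p = 0.0343, 0.0349 and 0.0395). The remaining smooth muscle markers went the other way. Myh11 differed by -0.23 in that fit without passing, and Tagln, too low to be tested, had means of 0.576 in FF and 0.437 FPKM in cKO hearts. All 3 neutrophil markers tested were lower in that fit, and Ngp also with 6 libraries (limma adjusted p = 0.0428).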

Additional observations from a re-analysis of the deposited data

How the results depend on the processing

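The counts of calls depended on FF replicate 3 and on the settings, while the signs of the called members were kept except for Ppp1r3a. Without 1 library at a time the genes past the threshold ranged from 0 to 817 higher and 0 to 899 lower, the members from 0 to 12 higher and 0 to 3 lower, and the member median from 0.16 to 0.35. The fit without FF replicate 3 gave those calls and the other 5 gave 0 (limma, 1270 to 2049 genes at an unadjusted p under 0.05). Genes higher and lower numbered 6 and 5 with a pseudocount of 0.1, 8 and 6 with 0.5, 0 and 0 without a filter (limma, 3210 genes at an unadjusted p under 0.05), 23 and 30 at a mean FPKM of at least 5, 31 and 28 with quantile normalization, 15 and 19 with rescaling outside mitochondrial and haemoglobin genes, 7 and 6 with a robust variance prior, 2143 and 2157 with library weights (0.0860 for FF replicate 3), 24 and 10 with limma voom on the reads, 32 and 33 with protein-coding genes alone, 264 and 266 with GC correction, 1 and 1 with the replicate block, 0 and 0 with the block and GC correction (limma, 2767 genes at an unadjusted p under 0.05), and 30 and 18 with scaling to total reads, an alternative chosen after seeing the data. Median-ratio scaling left the values as they were. Members higher and lower numbered 18 and 4 with library weights, 7 and 2 with GC correction, 2 and 1 with quantile normalization, 1 and 1 with protein-coding genes alone and 1 and 0 at a mean FPKM of at least 5. They numbered 0 and 0 with either other pseudocount, without a filter, with a robust prior, with limma voom and with the block and GC correction, where Fbp2 had limma adjusted p of 0.0523 to 0.102. At the higher filter Fbp2 was not tested. The replicate block alone kept the call of Fbp2. The member median was 0.39 with quantile normalization and 0.35 with limma voom. Ppp1r3a, -0.08 with 6 libraries, ranged from -1.02 to 0.40 without 1 library and changed sign to 0.0724 with a pseudocount of 0.1, 0.20 with limma voom, 0.38 and 0.40 without FF replicates 1 and 2 and 0.06 without cKO replicate 3. The log2 ratio of Slc2a1 to Slc2a4, 0.02 with 6 libraries, was -0.0184 with a pseudocount of 1 and ranged from -0.154 to 0.203 without 1 library. That of Pgam1 to Pgam2 ranged from -0.0636 to 0.232, and that of Ldha to Ldhb, -0.00993 with 6 libraries, from -0.0633 to 0.0540, the highest without FF replicate 3. Same-numbered libraries of the groups correlated at 0.38, -0.24 and 0.24 in their deviations from group means, and libraries of unlike number at -0.42 to 0.35. With so few libraries these values cannot decide whether replicate numbers pair them. Fbp2 in cKO hearts rests on 7 to 27 reads, which limits its fold more than that of other called members.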
